A study of Mus musculus with 24 samples.

Results

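Resting mouse Th1 cells were exposed to flavopiridol for 6 h, and their transcripts were measured on 3 arrays. One array held cells given DMSO, the vehicle, 1 held cells given 1 µM of the drug and 1 held cells given 10 µM. These were chosen by their labels from the 24 arrays of the series, which cover Th1 and Th2 cells, unstimulated or reactivated, under DMSO, flavopiridol or JQ1. The cells came from female C57BL/6 mice. Naive T cells had been cultured under Th1 polarizing conditions, and the cells called unstimulated were not reactivated before harvest. On each dual-colour array the RNA of the treated cells carried Cy3. RNA of naive CD4+CD62L+CD25-CD44lo cells from lymph nodes and spleens, also of female C57BL/6 mice, carried Cy5 as the reference. Whether 1 pool of naive RNA served all arrays is not given in the sources used here, so the Cy5 change is given beside a named change where it exceeded 0.5. Values are therefore log2 ratios of Th1 over naive cells, so that 0 means an equal level, and a change is the drug array minus the DMSO array. No condition was repeated. Both doses were treated as near repeats of the drug, and their difference, pooled with that of the other cell states, gave the error of the test. The lone DMSO array was assumed to vary in the same way. SE in the text is the standard error of that fit, and p-values measure only this spread, which may be technical.

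Flavopiridol inhibits cyclin-dependent kinases, among them CDK9, the kinase of P-TEFb. P-TEFb phosphorylates RNA polymerase II and its pausing factors, which lets the polymerase leave the promoter-proximal pause and make a full transcript. After P-TEFb is blocked, messages with short lives are lost first, while long-lived ones persist, so a level after some hours combines synthesis with decay. Th1 cells are the CD4+ T cells that make interferon-γ under the control of the transcription factor T-bet, encoded by Tbx21. The study used the drug to ask how far gene expression in these cells depends on elongation.

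The labelled cell type was checked against marker genes. All 14 Th1 markers on the array were well above background with DMSO, with Tbx21 at 5.41 and Ifng at 7.15 on the log2 scale over naive cells. Of 7 Th2 markers 4 were also well above background with DMSO, Gata3 at -0.52, Il1rl1 at 2.42, Ccr4 at 1.64 and Ccr8 at -0.011, while the cytokine genes Il4, Il5 and Il13 were not. None of the 3 NK cell markers was well above background. Among 5 B cell markers, Cd79b and Ms4a1 were detected with DMSO, and the summed Cy3 level of the 5 was 1486 with DMSO, 512 at 1 µM and 533 at 10 µM. Both CD8 genes were detected, with a summed level of 331, 648 and 624 in the same order. Of the 4 myeloid markers on the array, Csf1r and Itgam were detected while Lyz2 and Cd14 were not, and the sum of the 4 was 12018, 4556 and 4746. The detected pair went opposite ways, Itgam from -0.95 to -3.50 and -3.44, and Csf1r from -0.23 to 1.54 and 1.43. The part of these cells in the results was not tested, and in bulk RNA fewer cells of a type and less RNA per cell cannot be told apart. In Cy3, 48.8% of probes were well above background with DMSO, 38.8% at 1 µM and 36.7% at 10 µM. Repeated spots of a probe differed on these arrays by an SD of 0.0883 to 0.0984 (log2). The DMSO array lay on slide 1 and both drug arrays on slide 2, so slide and drug cannot be told apart.

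A large share of the Th1 transcriptome was lower with flavopiridol. Among 12436 genes tested, 2232 (17.9%) were called lower, with an adjusted p below 0.05 and a fall of at least 2-fold at each dose. Another 727 (5.85%) were called higher by the same limits. A lower call also needed a Cy3 signal well above background with DMSO, and a higher call one on both drug arrays. The falls were also deeper. Of the genes called lower, 831 fell at least 4-fold and 53 at least 16-fold, while 74 rose at least 4-fold and 1, Drc1, at least 16-fold. For 180 genes called lower, no probe was well above background on either drug array, and their fold is only a lower bound. The median change over all genes was -0.20 at 1 µM and -0.22 at 10 µM. These counts rest on loess, which sets the bulk of the spots on each array to an equal ratio. Centring each array on its median instead gave 4769 genes lower and 72 higher, and centring on the spike-in RNA, which was mixed into each labelled sample, gave 6968 lower and 14 higher. In the latter the median change of all genes was -1.31. Loess followed by a shift to the same spike-in RNA gave a median of -0.372, with 2709 genes lower and 395 higher. Genes called higher were thus 24.6% of all calls with loess, 0.201% with spike-in centring and 44.9% with the scanner software's own ratio. Rises in the text are relative to the bulk of transcripts on the array.

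**Figure D1:**
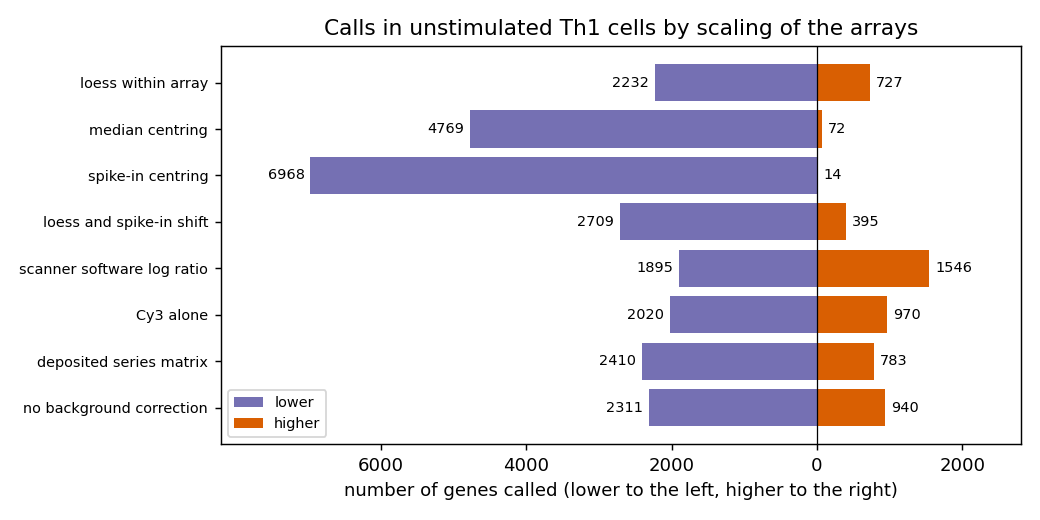
Number of genes called lower (bars to the left) and higher (bars to the right) in unstimulated Th1 cells with flavopiridol under 8 ways of scaling the same arrays, with the count printed at each bar. The lower calls run from 1895 to 6968 and the higher calls from 14 to 1546.

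The doses gave nearly the same profile. At 1 µM, 2938 genes were at least 2-fold lower and 997 at least 2-fold higher, and at 10 µM the counts were 2756 and 861. No gene moved past 2-fold in opposite directions at the 2 doses. The level at 10 µM was at least 2-fold above that at 1 µM for 146 genes and at least 2-fold below it for 51. Both doses share the DMSO array, so their likeness was not tested.

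The gene with the deepest fall was Ddit4, which encodes the mTORC1 inhibitor REDD1. Its ratio to naive cells was 0.95 with DMSO, -6.28 at 1 µM and -6.01 at 10 µM, a change of -7.10 (SE 0.79, adjusted p = 0.00101), or 137-fold. Nr4a1, a nuclear receptor gene induced by T cell receptor signals, stood at 2.26, -4.52 and -4.34 and fell by 6.69 (SE 1.06, adjusted p = 0.00354). Nfkbia, which encodes the NF-κB inhibitor IκBα, stood at 1.61, -5.14 and -4.94 and fell by 6.65 (SE 0.85, adjusted p = 0.0016). In each of the 3 a transcript at or above its naive level with DMSO lay far below it at both doses. Ccr7, the lymph node homing receptor, went from -0.38 to -7.06 and -6.68, and Btg1, an antiproliferative factor, from -1.28 to -7.16 and -6.77. Both were below the naive level already with DMSO. Other genes among the 12 lowest were the interferon regulatory factor gene Irf1 (change -5.87), Tnfaip3, Cxcl10, the sorting nexin gene Snx20 (change -5.31), the HSP40 gene Dnajb1 (change -5.22) and Mad2l1bp (change -5.16), whose product acts in the spindle checkpoint. Tnfaip3, which encodes the NF-κB inhibitor A20, was not well above background with drug and was at least 36.4-fold lower in the Cy3 channel. Cxcl10, an interferon-induced chemokine gene, stood at 5.64 with DMSO and at 0.36 and 0.13 with drug, yet its adjusted p of 0.0483 was close to the limit and rose to 0.124 without the 1 µM array and 0.129 without the 10 µM array.

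**Figure D2:**
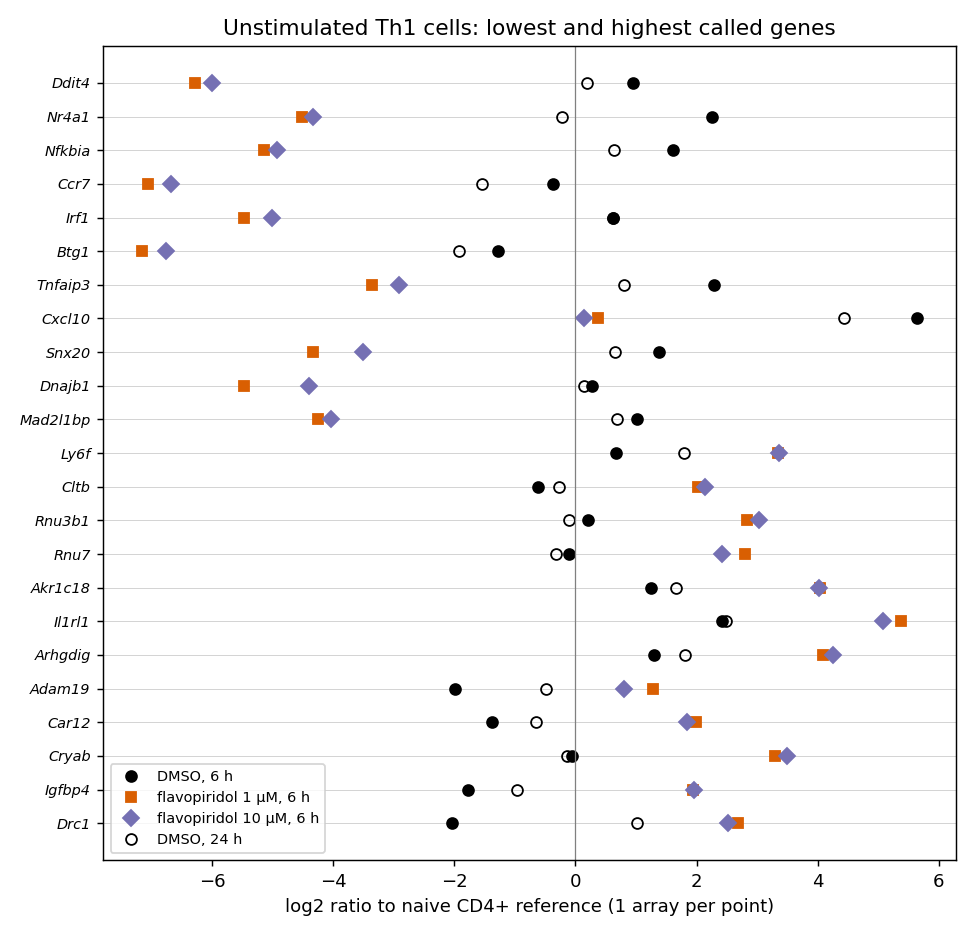
Log2 ratio to naive CD4+ cells (x axis) of 23 genes from the 12 lowest and the 12 highest called (rows), 1 point per array, for DMSO at 6 h (black), flavopiridol at 1 µM (squares) and 10 µM (diamonds), and DMSO at 24 h (open circles). The drug points lie together and apart from the DMSO point at 6 h in every row, and for Drc1 the 24 h DMSO array stands at 1.02 against -2.03 at 6 h.

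Nfkbia and Tnfaip3 are textbook targets of the NF-κB factor that their products restrain, so the 250 bases before their start sites are shown from RefSeq (build GRCm38.p6, 5′ to 3′ on the gene's strand). Capitals mark a form of the NF-κB site, GGG followed by any 2 bases and TTTCC, or the letters TATAAA, on either strand. The first promoter listed for Tnfaip3 is shown.
Nfkbia (chr12:55492648-55492897, minus strand): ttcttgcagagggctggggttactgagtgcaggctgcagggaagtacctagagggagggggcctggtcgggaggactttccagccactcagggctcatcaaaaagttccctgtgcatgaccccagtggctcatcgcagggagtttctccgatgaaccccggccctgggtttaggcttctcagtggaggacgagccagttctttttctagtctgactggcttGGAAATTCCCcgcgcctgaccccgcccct
Tnfaip3 (chr10:19015411-19015660, minus strand): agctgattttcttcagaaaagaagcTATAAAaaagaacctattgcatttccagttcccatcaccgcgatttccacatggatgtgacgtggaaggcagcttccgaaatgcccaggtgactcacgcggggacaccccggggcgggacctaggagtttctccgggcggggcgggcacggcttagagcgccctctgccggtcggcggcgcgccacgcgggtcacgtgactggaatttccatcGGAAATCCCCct
The capitals GGAAATTCCC of Nfkbia begin 29 bases before the start, and the run GGAAATCCCC of Tnfaip3 begins 12 bases before it. Tnfaip3 also holds TATAAA 225 bases before the start. Of the genes tested, 9983 had a promoter in the table, and the NF-κB letters occurred in 1.77% of these, in 2.08% of the 1824 with a promoter among those called lower, in 2.21% of the 587 called higher and in 1.65% of all 27025 symbols in the table. Of the 45 genes with a promoter that fell at least 16-fold, 4 held it: Nfkbia, Tnfaip3, Mcl1 and Bbc3. Nfkbia and Tnfaip3 had prompted the search, so this count cannot be read as an enrichment, which was not tested. TATAAA was found in 8.69% of the tested genes, 6.47% of those lower, 9.37% of those higher and also in 4 of the same 45. A match of letters describes the window only.

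Signal-induced genes formed the groups with the lowest median change. The immediate early list shares Klf2, Btg1, Btg2 and Tob1 with the quiescence list given further on. Of 51 immediate early and growth factor response genes tested, 32 (62.7%, against 17.9% of all genes) were lower and 0 (against 5.85%) higher. Their median change was -2.74 at 1 µM and -2.61 at 10 µM. Besides Nr4a1 and Btg1, the fall was deepest for Dusp2, a phosphatase of nuclear MAP kinases, with a ratio of -1.65 with DMSO and -6.45 and -6.27 with drug (change -4.71, SE 0.72, adjusted p = 0.00306). Myc went from -0.05 to -1.93 and -1.82 (change -1.82, SE 0.32, adjusted p = 0.00494). The activation marker Cd69 stood at 1.19, -2.65 and -2.63 but did not pass the test (adjusted p = 0.0574). Of 27 genes for NF-κB subunits, inhibitors and feedback, 16 (59.3%, against 17.9%) were lower and 0 higher, with medians of -2.41 and -2.15. Bcl3, an atypical IκB protein, fell by 4.08 after Nfkbia and Tnfaip3. Rela, the p65 subunit, stood at 0.61, -2.79 and -2.21 (change -3.11, SE 0.68, adjusted p = 0.0111), while Nfkb1, the p50 precursor, changed by -0.94 and was not called (adjusted p = 0.0563). The medians of both groups lay below that of all genes under each of 9 ways of scaling the arrays or combining probes.

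The Th1 genes themselves split. Tbx21 stood at 5.41 with DMSO, 1.01 at 1 µM and 1.73 at 10 µM, so both drug arrays were far below DMSO yet still above the naive level. The change was -4.04 (SE 0.43, adjusted p = 0.000842), or 16.5-fold. Ifng, the signature cytokine of these cells, stood at 7.15, 7.60 and 8.15 and was not called, with a change of 0.73 (SE 0.24, adjusted p = 0.0467). Its reference channel moved by 0.96 between these arrays, so its Cy3 signal alone changed by 1.69, and the part of the reference in this value was not tested. With spike-in centring the Ifng change was -0.42, and without the 1 µM array the change of 1.0 was called higher (adjusted p = 0.0159). Neither reading held a fall past 2-fold, whereas its activator Tbx21 fell 16.5-fold on the same arrays. Over the list of 36 Th1 identity and effector genes tested, 11 were lower and 3 higher, against backgrounds of 17.9% and 5.85%, with medians of -0.38 and -0.31. The transcription factor genes Irf1 (change -5.87), Id2 (change -4.46), Tbx21, Bhlhe40 (change -3.77, with a reference channel that fell by 1.83 and a Cy3 signal that fell by 5.60), Prdm1 and Runx3 (change -1.30) were among those that fell. So were Fasl, the death receptor ligand, with a change of -3.01, and Cxcr3, the chemokine receptor for Cxcl10, which went from 4.04 to 2.70 and 2.56 (change -1.41, SE 0.23, adjusted p = 0.00377).

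Of the list, 22 genes were not called, among them 5 cytokine receptor genes. Il12rb2, a chain of the interleukin-12 receptor, stood at 1.60 with DMSO and 1.64 and 1.69 with drug. Il18r1 stood at 1.96, 2.19 and 1.83, and Il18rap, its partner chain, at 4.14, 4.0 and 3.37. Il12rb1 changed by 0.95 and Il2rb by 0.29. The 3 genes that rose were Lta (lymphotoxin alpha, change 2.46, SE 0.38, adjusted p = 0.00312), Ctsw (cathepsin W, change 1.67) and Prf1 (perforin, change 1.27). Nkg7, another granule gene, stood at 2.59, 3.41 and 3.82 and missed 2-fold at 1 µM, with a reference channel that moved by 0.80. Gzmb stood at 3.69, 3.78 and 4.23, although its reference channel moved by 2.80. The granzyme genes Gzma (change 0.64) and Gzmk (change 0.32) were not called either. Stat4, which carries the interleukin-12 signal, was not tested because a spot was left out on another array, and stood at 0.42, -1.85 and -1.64. The median of the list lay below that of all genes as scaled here, but up to 0.29 above it under 3 of the 9 scalings.

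**Figure D3:**
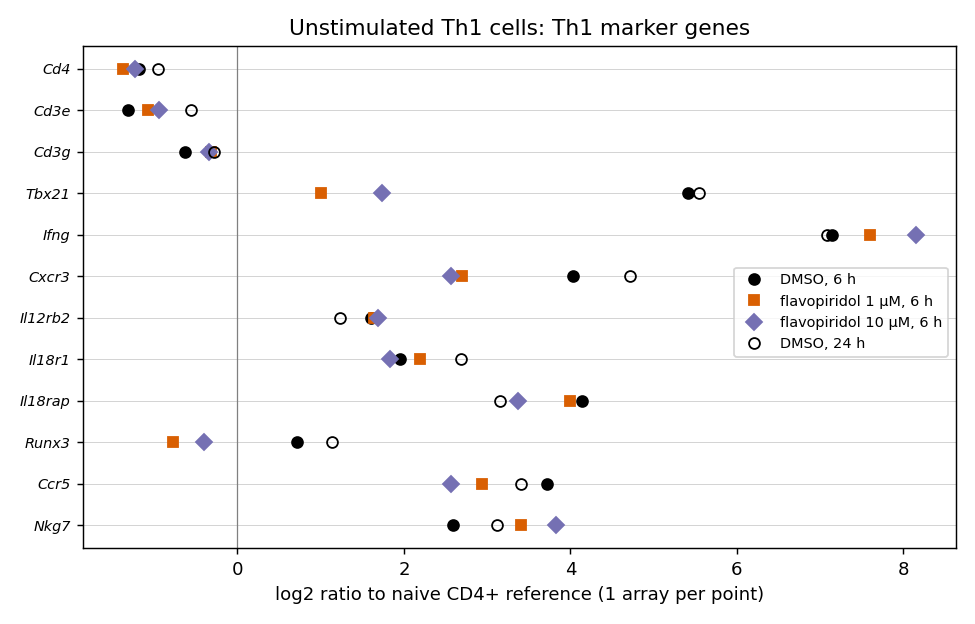
Log2 ratio to naive CD4+ cells (x axis) of the Th1 marker genes that entered the fit (rows), 1 point per array, with the same symbols as in the plot of the lowest and highest genes. Tbx21 drops from 5.41 to 1.01 and 1.73 with drug, while Ifng stays at 7.60 and 8.15 and Il12rb2 at 1.64 and 1.69.

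Of 31 JAK-STAT genes, 13 (41.9%, against 17.9% of all genes) were lower and 0 (against 5.85%) higher, with medians of -1.04 and -1.18. Ifngr1, a chain of the interferon-γ receptor, went from 2.59 to -2.86 and -1.0 (change -4.52, SE 1.24, adjusted p = 0.0258), with a reference channel that moved by 0.71, doses that differed by more than 2-fold, and no call without the 1 µM array (adjusted p = 0.101). Socs1, a feedback inhibitor of the pathway, fell by 3.28 and the kinase gene Pim1 by 2.76. Cish, a further feedback gene, stood at 3.07, -0.76 and 1.11 and was not called (adjusted p = 0.0528), but passed without the 10 µM array (adjusted p = 0.0328). In the T cell receptor group 10 of 36 genes (27.8%, against 17.9% of all genes) were lower and 0 higher, with medians of -0.53 and -0.46. The adaptor Sla (change -3.61), whose call was lost without the 1 µM array (adjusted p = 0.0932), and the inhibitory receptor gene Pdcd1, at least 5.45-fold lower in the Cy3 channel alone, were among those that fell. Cd3e and Cd4 were not called: Cd3e stood at -1.31, -1.07 and -0.94, and Cd4 at -1.18, -1.38 and -1.24.

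Genes of quiescence and lymphoid homing, which naive cells express at high level, were lower for the most part. Of 34 tested, 21 (61.8%, against 17.9% of all genes) were lower, 0 (against 5.85%) were higher and 13 were not called, and their median ratio to naive cells was -1.26 with DMSO, -3.31 at 1 µM and -3.13 at 10 µM. Klf2, which drives S1pr1, went from -2.73 to -7.26 and -6.99 (change -4.40, SE 0.29, adjusted p = 0.00025). Cdkn2d, a cell cycle inhibitor gene, went from 1.02 to -4.22 and -3.88. Il7r, the interleukin-7 receptor, stood at -1.25, -3.49 and -2.82 and was not called (adjusted p = 0.128).

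Survival genes were unequally affected. Of 28 Bcl2 family and cell death genes, 11 (39.3%) were lower and 1 (3.57%) higher, against 17.9% and 5.85% of all genes, with medians of -0.88 and -0.93. Mcl1, a survival protein with a short life, went from -0.46 to -5.12 and -5.17 (change -4.69, SE 0.37, adjusted p = 0.000388), or 25.7-fold. Bcl2l1, encoding Bcl-xL, fell by 1.09 (SE 0.23, adjusted p = 0.0104). Bcl2 itself stood at -0.65, -0.26 and 0.31 and was not called. The death-promoting genes Bbc3 (change -4.13) and Fas (change -3.49) fell too, and Cycs, cytochrome c, rose by 1.28. Of 28 p53 pathway genes 12 (42.9%, against 17.9%) were lower and 0 higher, with medians of -1.39 and -1.18. Trp53 stood at 0.41, 0.56 and 0.66 without a call, while its targets Trp53inp1 (change -3.74) and Mdm2 (change -2.29) fell. Cdkn1a, encoding p21, stood at 4.78, 2.30 and 3.16 and was not called, but its reference channel fell by 2.38 between these arrays and its Cy3 signal by 4.42.

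The genes of the elongation machinery, the target of the drug, were in part lower. Of 43 tested, 13 (30.2%, against 17.9% of all genes) were lower and 0 (against 5.85%) higher, with medians of -0.66 and -0.67. Cdk9 stood at 0.11, -1.68 and -1.12 (change -1.51, SE 0.38, adjusted p = 0.0199), although the mean of its 3 probes changed by only -0.80, and the call was lost without the 1 µM array (adjusted p = 0.0807). Its partner cyclin gene Ccnt1 changed by -0.69 and was not called. The P-TEFb inhibitor gene Hexim1 was not called either and was not well above background with drug, which made it at least 1.69-fold lower in Cy3. Mepce, which caps and protects the 7SK RNA of the inactive complex, went from 0.18 to -3.39 and -3.27 (change -3.51, SE 0.20, adjusted p = 0.000206). The elongation factor genes Ell and Paf1 fell by 2.08 and 2.07. Of 21 SR splicing factor and Clk kinase genes 4 (19.0%) were lower, a share near the 17.9% of all genes, with medians of -0.83 and -0.79.

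Stress pathways did not move as blocks. Of 31 genes of the unfolded protein and integrated stress responses, 14 (45.2%) were lower and 2 (6.45%) higher, against 17.9% and 5.85% of all genes. The transcription factor Atf4 went from 0.76 to -3.19 and -3.52 (change -4.12, SE 0.36, adjusted p = 0.000501). Its targets Trib3 (change -4.79) and Chac1 (at least 13.2-fold lower in Cy3) also fell, whereas Pdia4 (change 1.88) and Sdf2l1 (change 1.77), which fold proteins in the endoplasmic reticulum, rose. Among 26 heat shock genes 7 (26.9%) were lower and 3 (11.5%) higher, against 17.9% and 5.85% of all genes. The HSP70 genes Hspa8 (change -3.36) and Hspa5 (change -2.93) fell with Dnajb1, although the Hspa5 call was lost without the 1 µM array (adjusted p = 0.0864) and without the 10 µM array (adjusted p = 0.0775). In the same group Cryab, a small heat shock protein, rose 10.9-fold and the co-chaperone Fkbp4 rose 5.39-fold. In the glycolysis and hypoxia group 9 of 27 (33.3%, against 17.9%) were lower and 0 higher, led by the glucose transporter Slc2a1 (change -4.58) and Ankrd37 (change -4.17, not called without the 1 µM array, adjusted p = 0.0546). Gapdh changed by -0.58 and was not called. Of 47 replication and mitosis genes 12 (25.5%, against 17.9% of all genes) were lower and 0 higher. Their median lay 0.43 below that of all genes, but 0.035 above it with the scanner software's ratio. Among them the replication licensing genes Cdt1 (change -4.11) and Cdc6 (change -3.70) and the cyclin gene Ccnf (change -3.87, with a Cy5 change of -0.50) were lowest.

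Of 40 interferon-stimulated genes 13 (32.5%) were lower and 2 (5.0%) higher, against 17.9% and 5.85% of all genes, with medians of -0.63 and -0.41. After Irf1 and Socs1 the lowest was Ifi47, an interferon-γ-induced GTPase gene (change -3.03, SE 0.17, adjusted p = 0.000204). Isg20, an RNA exonuclease, rose by 2.19 and Bst2, the antiviral protein tetherin, by 1.77. Of 295 Zfp zinc finger genes 95 (32.2%, against 17.9%) were lower and 5 (1.69%, against 5.85%) higher, with medians of -0.83 and -0.64. The study had mapped T-bet super-enhancers, dense clusters of T-bet binding, by ChIP-seq. Of the genes nearest to them 112 (31.8%) of the 352 tested were lower and 25 (7.10%) higher, the latter a share near the 5.85% of all genes, against 17.9% lower over all genes. Their medians were -0.55 and -0.69, against -0.20 and -0.22 over all genes.

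**Figure D4:**
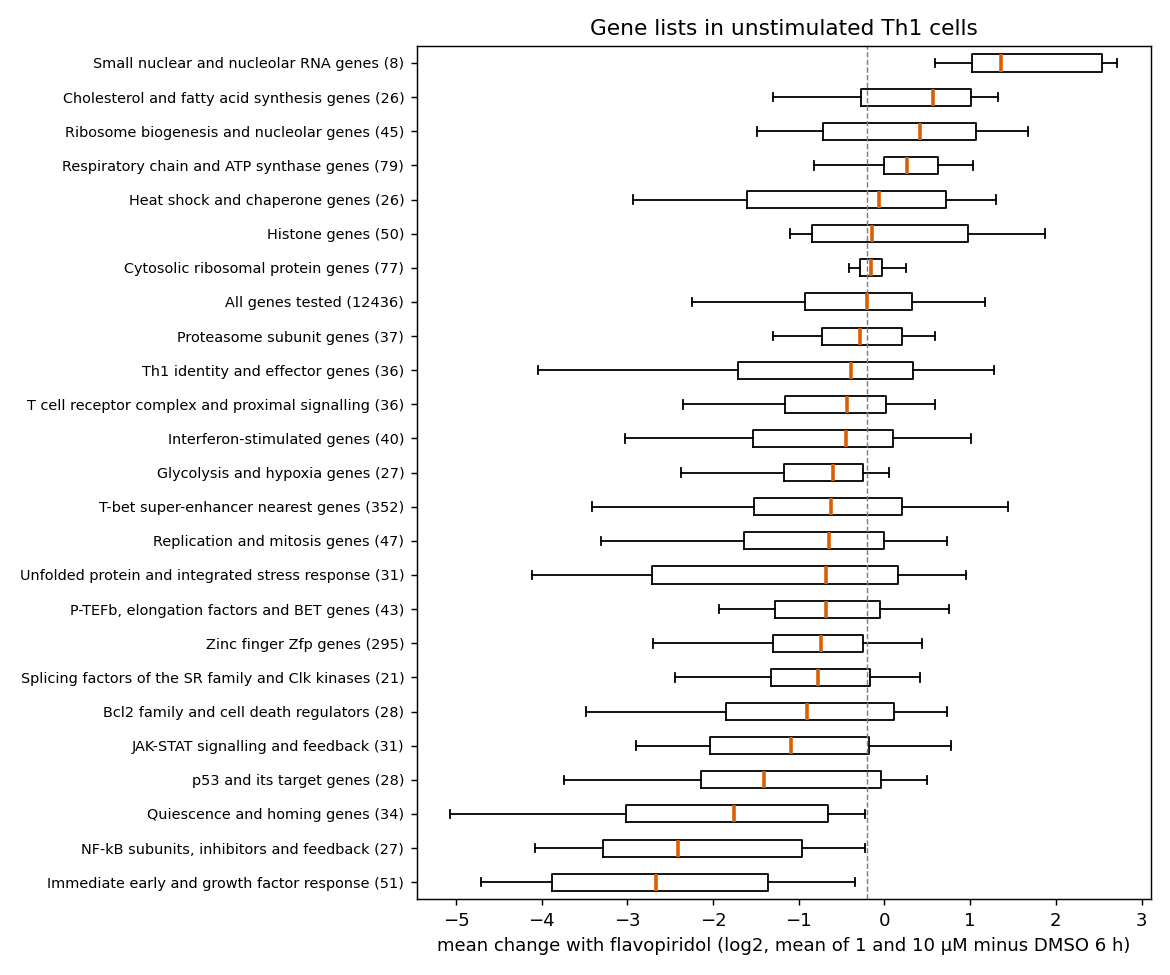
Mean change with flavopiridol (x axis, log2, mean of both doses minus DMSO at 6 h) over the genes of each list, with the number tested in brackets. Boxes span the quartiles with the median in orange, whiskers the 5th to 95th percentile, and the dashed line is the median of all genes (-0.21). Immediate early, NF-κB and quiescence genes lie lowest and small RNA genes highest.

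Calls in the housekeeping groups are read against 17.9% lower and 5.85% higher over all genes. Of 77 cytosolic ribosomal protein genes 0 were lower and 2 higher, Rpl7l1 (change 1.78) and Rpl21 (change 1.53), and the medians were -0.17 and -0.13. The mean change of the group had a median 0.054 above that of all genes with loess and 1.36 above it with median or spike-in centring. Of 79 respiratory chain and ATP synthase genes 1, Ndufs3 (change -1.21), was lower and 4 were higher, among them Ndufab1 (change 2.12), with medians of 0.26 and 0.29. Of 37 proteasome genes 4 (10.8%) were lower and 0 higher, led by Psmc2 (change -2.0). Among 26 cholesterol and fatty acid genes 2 (7.69%) were lower and 4 (15.4%) higher. Sqle (change -3.21, not called without the 1 µM array, adjusted p = 0.0546) and Hmgcs1 (change -2.38), early enzymes of sterol synthesis, fell, while the desaturase gene Scd1 rose by 2.04. Of 50 histone genes 3 (6.0%) were lower and 7 (14.0%) higher. H4c9, a histone H4 gene, stood at 2.18, 5.0 and 4.64 and rose most. H3f3b, which makes a replacement histone, went from 1.0 to -2.54 and -2.96 (change -3.75, SE 0.54, adjusted p = 0.00242). The other genes called lower were H2bc4 (change -1.28), which was not called with either drug array left out, and H2az2 (change -1.10). The medians of the respiratory and cholesterol groups were below 0 under 1 and 2 of the 9 scalings, and that of the ribosomal protein group was above 0 under 3, yet all of these medians lay above that of all genes under each of the 9. The medians of the histone, heat shock and proteasome groups lay above that of all genes under some scalings and below it under others.

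Small noncoding RNAs formed the group with the highest median. Of 8 snRNA, snoRNA and RNase RNA genes tested, 0 were lower and 6 higher, against 17.9% and 5.85% of all genes, with medians of 1.18 and 1.56. Rnu7, the U7 RNA that acts in histone message processing, went from -0.11 to 2.80 and 2.43 (change 2.72, SE 0.32, adjusted p = 0.00115). Rnu3b1, a U3 RNA of ribosomal RNA processing, went from 0.21 to 2.84 and 3.02. Rmrp and Rpph1, the RNA parts of RNase MRP and RNase P, rose by 1.16 and 1.22. The array does not tell a mature small RNA from a longer transcript across its gene. Under each of the 9 scalings the median of the group lay at least 1.38 above that of all genes.

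The highest protein-coding genes have varied known roles. Drc1, which encodes a part of the ciliary dynein regulatory complex, stood at -2.03 with DMSO and at 2.68 and 2.52 with drug, a change of 4.64 (SE 0.14, adjusted p = 6.08e-05), or 24.9-fold. With DMSO at 24 h it stood at 1.02, so part of the range was covered without drug. Igfbp4, an insulin-like growth factor binding protein, went from -1.77 to 1.94 and 1.96 (change 3.72, SE 0.13), with -0.96 at 24 h in DMSO. The others were Cryab, the carbonic anhydrase gene Car12 (change 3.29), the metalloproteinase gene Adam19 (change 3.03), Arhgdig (change 2.87), Il1rl1, Akr1c18 (change 2.78), the clathrin light chain gene Cltb (change 2.71) and Ly6f (change 2.69). Il1rl1, the receptor for interleukin-33, stood at 2.42 and rose to 5.38 and 5.08 (change 2.81, SE 0.26, adjusted p = 0.000576). In the reference channel Akr1c18 moved by 0.67 and Rnu3b1 by 0.55.

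A second DMSO array of unstimulated Th1 cells, taken at 24 h, lay on another slide and differed from the 6 h array by at least 2-fold in 79 genes above and 111 below. Of the genes called lower, 1802 were also at least 2-fold below this array at both doses, and of those called higher, 392 were above it. With both DMSO arrays as controls, 2343 genes were lower and 598 higher. The 24 h array also allowed Th1 genes to be picked on an array outside the comparison. The 1694 genes at least 2-fold above naive and well above background in Cy3 there had a median ratio of 1.75 with DMSO at 6 h. It was 1.54 at 1 µM and 1.45 at 10 µM. Of these genes 429 (25.3%) were called lower and 175 (10.3%) higher, against 17.9% and 5.85% of all genes. The set of all genes did not have to meet this signal limit, so these shares are not strictly alike. The 925 genes at least 2-fold below naive, picked without that limit, had medians of -1.45, -2.03 and -1.88, and 219 (23.7%) were lower and 61 (6.59%) higher. The median ratio of all genes went from 0.073 to -0.10 and -0.099 on the same arrays.

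For part of the genes the effect differed with the state of the Th1 cells. Set against the effect in Th1 cells reactivated before harvest, it was higher for 597 genes (4.8%) and lower for 609 (4.9%), by at least 2-fold and an adjusted p below 0.05. These 1206 calls became 644 without the 1 µM array of the unstimulated cells and 596 without the 10 µM array. Of the genes called lower in unstimulated Th1 cells, 1615 were also at least 2-fold lower in reactivated ones. In the ribosome biogenesis group, 4 of 45 genes (8.89%, against 17.9% of all genes) were lower in unstimulated cells and 9 (20.0%, against 5.85%) higher, with medians of 0.47 and 0.48, while the median effect in reactivated cells was -1.46, and the effects differed for 25 of the 45. The unstimulated median was below 0 under 2 of the 9 scalings and above that of all genes under each. Dkc1, the pseudouridine synthase of small nucleolar particles, rose by 2.16 in unstimulated cells and changed by -0.39 in reactivated ones, and Nop16 rose by 1.81 and changed by -0.65. Quiescence genes showed the other side, with 13 of 34 effects that differed and a median of -0.55 in reactivated cells. S1pr1, the receptor for exit from lymph nodes, stood at -2.71 with DMSO and at -5.74 and -5.70 with drug in unstimulated cells. In reactivated cells it stood at -6.43 without drug and at -5.82 and -5.73 with it. Both states thus met at one low level, and the effects differed by -3.67 (SE 0.18, adjusted p = 0.00138). Effects also differed for 16 of 36 Th1 identity and effector genes, with a median of -0.39 in unstimulated and -1.03 in reactivated cells. The same held for 17 of 40 interferon-stimulated genes, with medians of -0.45 and 0.56 in that order. Il2 stood at 0.31, 0.09 and 0.22 in unstimulated cells, where it was not well above background with drug and had little level to lose, and at 7.5, 0.97 and 0.17 in reactivated ones.

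The effect was also set against that in unstimulated Th2 cells, whose DMSO array is labelled both 6 h and 24 h, so its time is not settled. Both DMSO arrays lay on slide 1, but the Th1 drug arrays lay on slide 2 and the Th2 drug arrays on slide 3. Slide and cell type cannot be told apart in this contrast. The effect was higher in Th1 cells for 91 genes (0.732%) and lower for 50 (0.402%), and 2389 had an unadjusted p below 0.05. With either drug array of the Th1 cells left out, 8 to 10 genes passed the limits in all, and the scanner software's ratio gave 0. With loess and the spike-in shift 820 genes differed from Th2 cells and 618 from reactivated Th1 cells, so the order of the contrasts depended on the scaling. Ramp3, a receptor-modifying protein gene, fell from 2.21 to -2.44 and -2.46 in Th1 cells and stood at -0.57, 0.17 and 0.20 in Th2 cells, a difference of -5.42 (SE 0.17, adjusted p = 0.00036). Tbx21 stood at -0.02, 0.06 and -0.20 in Th2 cells, so that a fall like that in Th1 cells could not be seen there. Il1rl1 rose in Th1 cells, and in Th2 cells it stood at 3.47 with DMSO and 2.42 and 2.05 with drug, a difference of 4.05 (SE 0.37, adjusted p = 0.018) that was not called without the 1 µM array (adjusted p = 0.109) or without the 10 µM array (adjusted p = 0.0881). Of the genes called lower in unstimulated Th1 cells, 1665 were at least 2-fold lower in unstimulated Th2 cells and 945 in all 4 states, reactivated Th2 cells included. Of those called higher, 425 and 228 shared the direction in the same way.

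**Figure D5:**
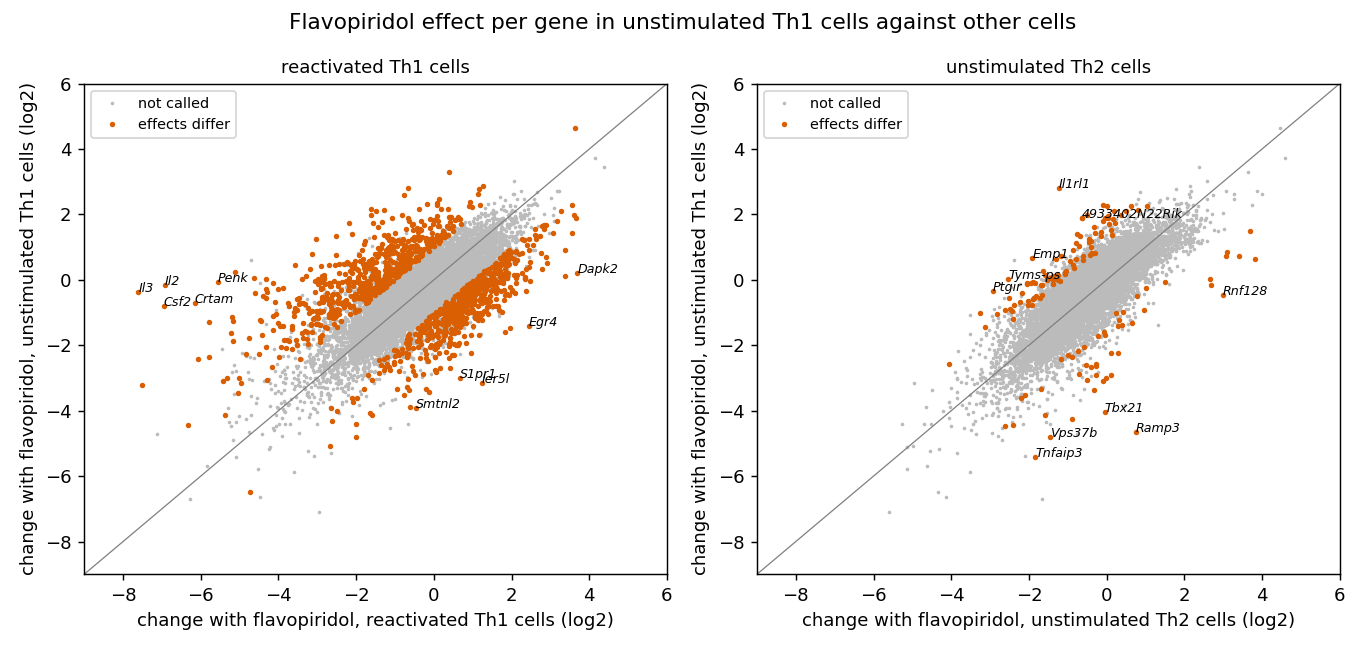
Change with flavopiridol per gene (log2, mean of both doses minus DMSO) in unstimulated Th1 cells (y axis) against reactivated Th1 cells (left) and unstimulated Th2 cells (right). Orange points are the 1206 and 141 genes whose effects differed, and the diagonal is an equal effect. Labels mark the named genes of each contrast, such as Il3 and Il2 on the left and Ramp3 and Il1rl1 on the right.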

How the data were processed

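Per the file headers, the deposited scanner files held spot intensity values from Agilent Feature Extraction 10.7.1.1, with a grid of genome build mm9, and the software's own log10 ratio of Cy5 over Cy3. A deposited value table gave log2 values of the same arrays, sample over naive, for 34710 of 55681 probes, and its normalization is not given in the sources used here. Here median spot intensities were background-corrected (normexp, offset 50) and normalized within each array by loess in limma 3.58.1 (R 4.3.3), then turned to log2 Cy3 over Cy5. Control and outlier-flagged spots were left out. Probes were named through RefSeq (GRCm38.p6, names only), 26448 probes carried 1 of 20031 symbols, and the brightest probe stood for a gene. Genes well above background in Cy3 on at least 3 of 12 arrays were tested. The 12 arrays held 4 cell states, each with DMSO, 1 µM and 10 µM, fitted as 8 group means with 4 residual degrees of freedom, all from the doses, and p-values were adjusted by Benjamini-Hochberg.

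The number of arrays limits the precision. The script for the fit was tested on simulated data. The genes of the series, the gene lists and the tests were chosen with earlier results of these data known. Named genes were the 12 lowest and 12 highest called, the 3 lowest and 3 highest called per list with set defining genes, and the 5 lowest and 5 highest in each contrast of effects. Those of a contrast were taken among called genes with Cy3 well above background on at least 3 of its arrays. A few of these genes are not reported here. Other members of the lists were named after their values were seen. A bound on a fold used Cy3 alone and, per drug array, the higher of the probe's signal and the lowest signal well above background. Alternatives changed the scaling, background correction, filters, probe rule, control, arrays in the fit and slide.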

Additional observations from a re-analysis of the deposited data

Results flagged for a closer look

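The flavopiridol effect in unstimulated Th1 cells differed, by the test of the difference itself, from that in 2 other cell states, and the genes with the largest differences are given here as log2 values. Against reactivated Th1 cells, the difference was negative for Ier5l (-4.38), the early growth response gene Egr4 (-3.83), S1pr1 (-3.67), the kinase gene Dapk2 (-3.49) and Smtnl2 (-3.46). On the drug arrays of the unstimulated cells Egr4 and Smtnl2 were not well above background, so their values are not exact. Ier5l stood at 3.05 with DMSO and at -0.17 and -0.03 with drug in unstimulated cells, but at 1.54, 2.92 and 2.62 in reactivated cells. Dapk2 stood at 4.02, 4.49 and 3.96 in unstimulated cells and at 0.96, 4.68 and 4.64 in reactivated ones, so that its levels with drug lay close together. Differences were positive for the cytokine genes Il3 (7.25), Il2 (6.77) and Csf2 (6.15), the enkephalin precursor gene Penk (5.50) and the adhesion receptor gene Crtam (5.46). In unstimulated cells none of these 5 was called, and their effects in reactivated cells ran from -5.56 to -7.61. Il2 and Csf2 were not well above background on either drug array of the unstimulated cells, nor Il3 at 10 µM. With DMSO all 3 lay within 1 of the naive level there, so they had little level to lose. Egr4, Il3 and Csf2 did not pass the limits with either drug array left out, and Crtam did not without the 10 µM array.

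Against unstimulated Th2 cells, the negative differences were those of Ramp3 (-5.42), Tbx21 (-3.99), Tnfaip3 (-3.59), the ubiquitin ligase gene Rnf128 (-3.46) and Vps37b (-3.33). Tbx21 stood at -0.02 with DMSO in Th2 cells, so that a like fall could not be seen there. Tnfaip3 was not well above background on either drug array of the Th1 cells, so its value is not exact either. Rnf128 stood at 1.57, 0.96 and 1.23 in Th1 cells and at 3.06, 6.08 and 6.02 in Th2 cells. Positive differences were those of Il1rl1 (4.05), Emp1 (2.59), the prostacyclin receptor gene Ptgir (2.58), Tyms-ps (2.56) and 4933402N22Rik (2.53). Ptgir and 4933402N22Rik were well above background in Cy3 on only 4 arrays of this contrast, so their differences are not exact. Tyms-ps is a pseudogene of Tyms and may share signal with it. Of these 10, only Ramp3 and Rnf128 passed the limits with either drug array left out.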

How the results depend on the processing

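Scaling moved the counts most. Median centring gave 4769 genes lower and 72 higher, spike-in centring 6968 and 14, loess with a spike-in shift 395 higher, and the scanner software's ratio 1546 higher. The other settings kept both counts within 1.5 times, and leaving out 1 drug array gave 2009 to 2170 lower and 789 to 928 higher. Of the 2232 genes lower, 2229 were also lower with spike-in centring and 1461 with the software's ratio. The contrast with reactivated cells held 510, 618, 289 and 727 genes with spike-in centring, loess with the spike-in shift, the software's ratio and no background correction, and 596 to 644 with 1 drug array left out. Among the settings run for it, the contrast with Th2 cells moved under each but the slide block. It held 456 (median centring), 212 (spike-in centring), 820 (spike-in shift), 0 (software), 332 (Cy3 alone) and 248 genes (deposited table). Further counts were 12 (no background correction), 213 (no filter), 23 (signal on all 12 arrays), 224 (mean of probes) and 8 to 10 with 1 drug array left out. The cause was not tested. The slide as a random block changed nothing and informs little, since both doses of a state share a slide and the estimated correlation was 0.

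Among named genes, 2005 values under alternatives kept direction and call, 173 lost the call, 29 gained it and 24 turned sign. With median centring these were Bcl2 (-0.12), Gapdh (0.14) and Trp53 (-0.86). With spike-in centring they were Bcl2 (-0.60), Cox6b2 (-0.24), Dhcr7 (-0.37), Ifng (-0.42), Lss (-0.25), Prf1 (-0.21), Rpl21 (-0.0037), Trp53 (-1.33), Zfp352 (-0.069), Zfp692 (-0.29) and Zfp783 (-0.037). Actb turned with the spike-in shift (-0.090), the deposited table (-0.066), the 24 h control (-0.52) and the 4 unstimulated arrays (-0.22). Cdkn1a turned with the software's ratio (1.75), Cd4 with Cy3 alone (0.030) and the mean of probes (0.31). With the 24 h control Bcl2 (-0.30) and Cd3e (-0.44) turned, and with the 4 arrays Cd3e (-0.068). The fall of Tbx21 lost its call only with the software's ratio (change -3.32, adjusted p = 0.0933). The changes of Cox6b2, Cxcl10, H2bc4 and Hspa5 lost theirs with either drug array left out, and those of Ankrd37, Cdk9, H2ac8, Ifngr1, Sla, Sqle and Srsf7 without the 1 µM array. No paired analysis was possible because the labels carry no replicate numbers and each condition has 1 array.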
